A study of Sparassis latifolia with 12 samples.

Results

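Transcript levels of 5 mRNAs of the ergosterol pathway, 3 of them for named late steps, were followed through cold storage of *Sparassis latifolia*, a cauliflower mushroom. The members were taken by name: EVM0000111 (ERG25), EVM0012147 (ERG3) and EVM0003490 (ERG4), with EVM0000659 and EVM0004880, which the study assigned to the same pathway without naming their step, so whether these act late is not known. They make up 5 of the 13103 mRNAs listed, and all 5 were among the 10962 mRNAs kept for testing. The study named them as genes with lower expression in these same samples, so the direction of their change is not independent evidence. Fruiting bodies of the strain Minxiu No.1 were packed in oriented polypropylene (OPP) film and stored at 4 ℃. Group A was sampled fresh on day 0, and groups B, C and D were stored until day 8, day 16 and day 24, with 3 replicates in each group. The packing, the strain and the temperature were common to the 4 groups, and no group was stored without film or at another temperature. Each of the 12 libraries was made from total RNA after removal of ribosomal RNA. Whether the replicates were separate packages or fruiting bodies is not stated, so the spread behind each p-value is that between these samples only and may be technical.

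Ergosterol is the main sterol of fungal membranes, where it holds the place that cholesterol has in animal cells. It is built from squalene by a chain of enzymes of the endoplasmic reticulum, and the late steps trim, rearrange and desaturate the ring system and the side chain. In *Saccharomyces cerevisiae*, ERG25 is an oxygen-dependent oxidase that acts in the removal of some methyl groups from the ring. ERG3 is an oxygen-dependent desaturase of the ring and belongs to the same family of membrane-bound, iron-containing enzymes. ERG4 of yeast is a reductase that uses NADPH, needs no oxygen and saturates a bond of the side chain in the last step.

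Expression was given as FPKM, the fragments of a gene scaled to transcript length and to the mapped fragments of the library, so that levels of different genes can be set side by side. The number of reads behind a single value is unknown. Day 0 replicate 2 stood apart for these genes and partly in the whole transcriptome. On the first principal component, which held 49.6% of the variance, it had a score of -53.2, against -82.0 and -72.4 for the other day 0 libraries and 44.8 to 53.7 for days 8 and 16. The number of mRNAs above 0 FPKM was 12636 to 12886 on day 0, 10956 to 11061 on days 8 and 16, and 11133 to 12789 on day 24. Groups B and C also had lower read error rates than groups A and D in the sequencing statistics of the study, so for comparisons between these pairs of groups read quality and day of storage cannot be told apart. In the same statistics all libraries of groups B and D had lower unique mapping rates than those of groups A and C. Mapping and day of storage are thus likewise confounded between those pairs of groups. The files pair no IDs with names, so the tissue could not be checked by marker genes. In these bulk samples, fewer cells of a kind and less RNA per cell cannot be told apart either.

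All 5 members were most abundant in fresh fruiting bodies. ERG25, the methylsterol monooxygenase, had FPKM values of 650, 230 and 607 in replicates 1, 2 and 3 of day 0. It had 68.5, 72.6 and 74.4 on day 8, then 58.8, 63.4 and 67.3 on day 16, and 101, 121 and 143 on day 24. Every stored library lay below every fresh one, and every day 24 library lay above all 6 libraries of days 8 and 16. ERG25 stood at the 95.4th to 99.1st percentile of all mRNA levels on day 0, at the 80.5th to 85.3rd on days 8 and 16, and at the 87.7th to 91.6th on day 24.

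ERG3, the sterol desaturase, followed a similar course at a lower level and with a wider spread on day 24. Its FPKM was 174, 70.4 and 263 in replicates 1 to 3 of day 0, 21.7, 16.6 and 22.9 on day 8, 14.4, 19.6 and 14.9 on day 16, and 23.8, 19.3 and 41.7 on day 24. All stored libraries were below all fresh ones. On day 24, replicates 1 and 3 were above every library of days 8 and 16, whereas replicate 2 lay among them.

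ERG4, the sterol reductase, had the lowest mean of the 5 members on day 0 and day 24. It was at 192, 44.9 and 157 FPKM on day 0, 30.4, 33.2 and 16.6 on day 8, 19.1, 17.1 and 19.6 on day 16, and 22.1, 15.6 and 20.2 on day 24. Stored and fresh libraries did not overlap. Within day 8, replicates 1 and 2 were above all day 16 libraries and replicate 3 was below them. That library also differed from its group on the second principal component (-14.4, against 32.3 and 42.1 in replicates 1 and 2 of day 8 and -6.56 to 0.524 on day 16), and the part of this shift in the ERG4 value was not tested.

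EVM0000659 kept the highest stored levels after ERG25. Its FPKM was 240, 74.0 and 203 on day 0, 61.1, 74.6 and 50.8 on day 8, 59.6, 60.2 and 62.3 on day 16, and 43.1, 53.4 and 44.5 on day 24. It was the only member whose stored and fresh libraries overlapped, since day 8 replicate 2 was slightly above day 0 replicate 2. EVM0004880 was at 258, 50.6 and 189 on day 0, 49.4, 39.5 and 47.1 on day 8, 29.1, 30.3 and 48.4 on day 16, and 25.9, 31.3 and 26.5 on day 24. Its lowest fresh value lay only just above its highest stored value. For 4 of the 5 members all 9 stored libraries were thus below all 3 fresh ones, a pattern that 8.49% of the mRNAs tested showed.

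**Figure D1:**
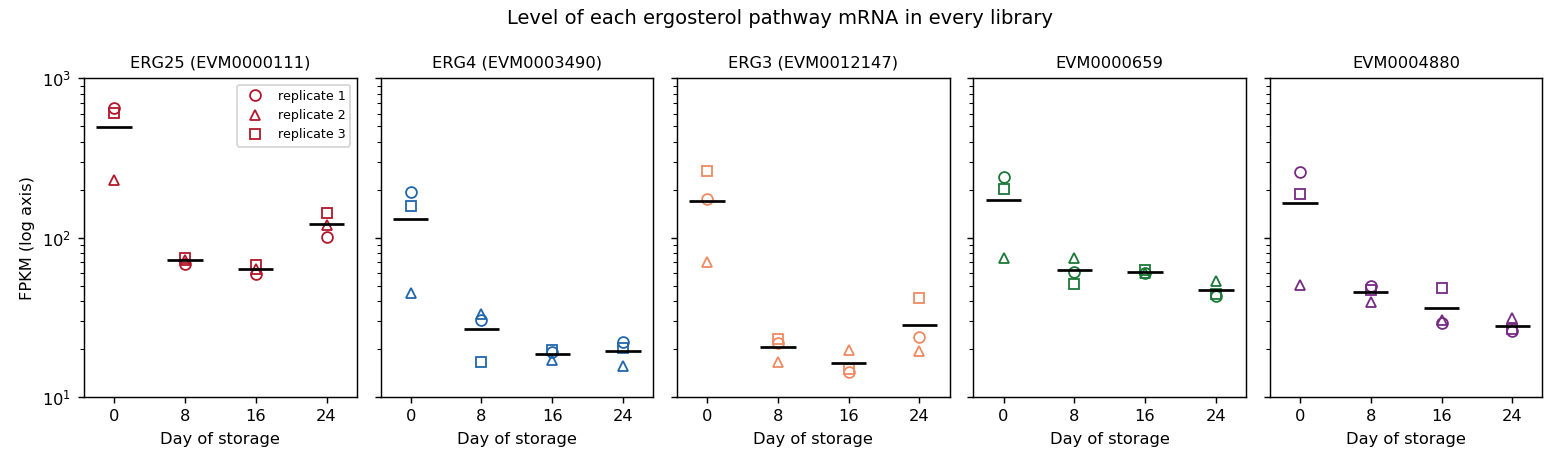
FPKM on a log axis (y) against day of storage (x) for the 5 members, with 1 symbol per library (circle, triangle and square for replicates 1, 2 and 3) and a bar at the mean of 3 libraries. Day 0 replicate 2 is the lowest fresh library in every panel, and ERG25 on day 24 (101 to 143) lies above its values on days 8 and 16 (58.8 to 74.4).

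The first question was how far the members fell in storage. Log2 fold changes were fitted with limma on log2(scaled FPKM + 1) for all mRNAs together, and a gene counted as called where its adjusted p was under 0.05 and its level had changed by 1 or more on the log2 scale. This scale understates the changes of genes with low FPKM. By day 8 all 5 members had fallen, where 16.8% of the mRNAs tested were called lower. The log2 fold change was -2.84 for ERG3 and -2.66 for ERG25 (standard errors 0.420 and 0.332; limma adjusted p 0.000275 and 8.91e-05). ERG4 was at -2.1 (standard error 0.452; limma adjusted p = 0.00294), EVM0004880 at -1.59 (standard error 0.470; adjusted p = 0.0159) and EVM0000659 at -1.34 (standard error 0.354; adjusted p = 0.00944). Among all mRNAs, 1.73% had a lower fold change than ERG3 and 2.23% a lower one than ERG25, but 8.43% and 11.8% had a lower one than EVM0004880 and EVM0000659. The 2 members without a named step were the less firm calls on day 8. In a fit of groups A and B alone their adjusted p values were 0.0706 for EVM0004880 and 0.0597 for EVM0000659, and EVM0004880 was also lost without day 0 replicate 1 (0.0637) or without day 0 replicate 3 (0.0605).

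By day 16 all 5 members were again called lower than on day 0, beside 16.7% of all mRNAs. The log2 fold changes were -3.12 for ERG3 (adjusted p = 0.000143 from limma), -2.82 for ERG25 (6.34e-05), -2.52 for ERG4 (0.000941), -1.93 for EVM0004880 (0.00586) and -1.33 for EVM0000659 (0.00943). The members' median was -2.52, against -0.02 over all mRNAs tested. On day 24 the 5 members were still below day 0, while 6.80% of all mRNAs were called lower. ERG4 and ERG3 had log2 fold changes of -2.50 and -2.44 (limma adjusted p 0.00366 and 0.00284). EVM0004880 was at -2.27 (0.00695), ERG25 at -1.92 (0.00292) and EVM0000659 at -1.72 (0.00684). Only 1.13% of the mRNAs tested had a lower fold change than ERG4 in this comparison, and 3.36% had a lower one than EVM0000659. Since the 3 comparisons share the day 0 libraries, they do not give independent evidence.

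**Figure D2:**
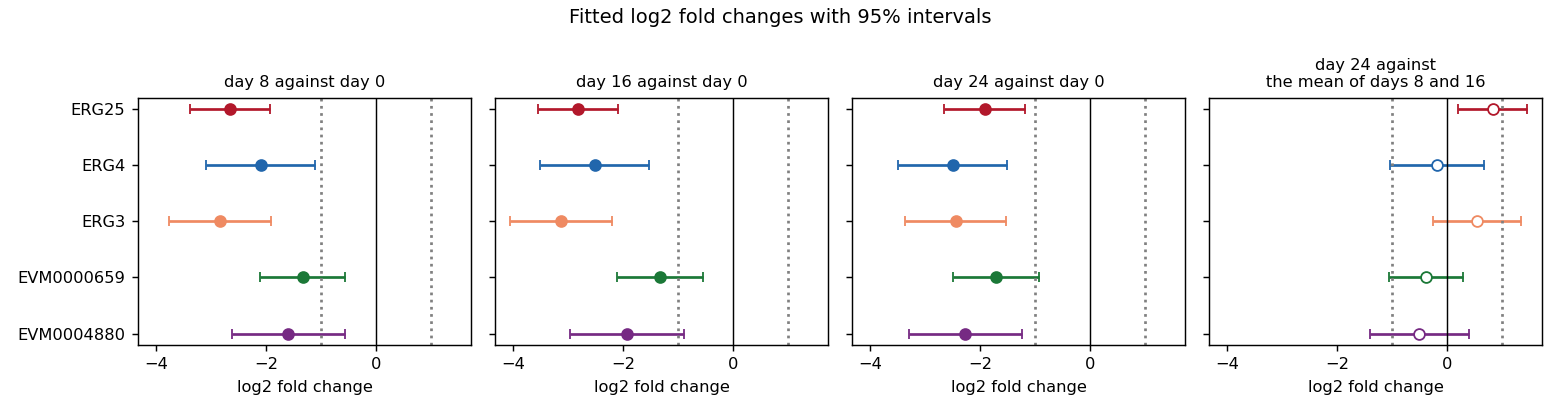
Log2 fold change (x) of each member (y) in 4 comparisons, with bars for the 95% interval from limma, filled points for called members and dotted lines at the fold threshold of 1. All 5 points are filled and left of -1 against day 0, and none is filled for day 24 against days 8 and 16, where ERG25 is at 0.82.

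Leaving out the fresh library that stood apart was bound to enlarge the falls, since it was the lowest fresh library for each member. The harder checks were those without day 0 replicate 1 or 3, where only EVM0004880 on day 8 lost its call. Day 0 replicate 2 was below the mean of the other fresh libraries for each member, with log2 differences of -1.46 for ERG25, -1.58 for EVM0000659, -1.61 for ERG3, -1.94 for ERG4 and -2.12 for EVM0004880. Of all mRNAs, 1.45% to 4.22% were lower still in this library. Without it the fold changes were larger, for example -3.15 for ERG25 and -2.30 for EVM0004880 on day 8, and all 5 members stayed called on each of the 3 days. The fresh level of these genes is therefore known with a wide error. The mean FPKM on day 0 was 496 ± 231 for ERG25, 169 ± 96.6 for ERG3, 131 ± 76.9 for ERG4, 172 ± 87.0 for EVM0000659 and 166 ± 106 for EVM0004880 (SD, n = 3 each).

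**Figure D3:**
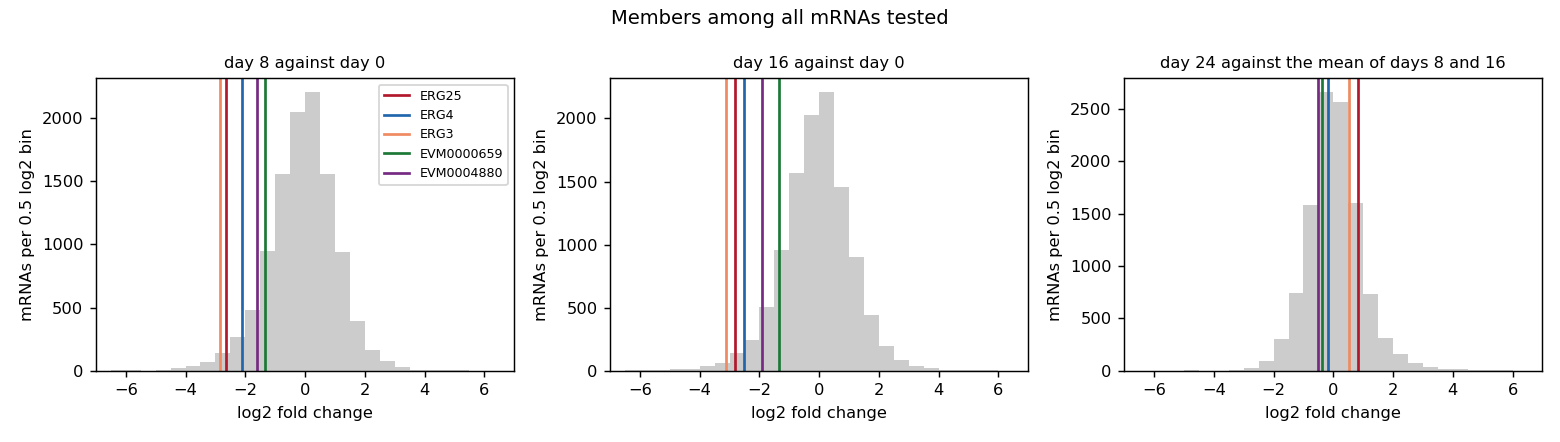
Number of mRNAs (y) per 0.5 bin of log2 fold change (x) over the 10962 mRNAs tested, with a coloured line at each member; values beyond 7 in either direction are not drawn. Against day 0 the members sit in the left part of the distribution (-1.34 to -2.84 on day 8 and -1.33 to -3.12 on day 16), and on day 24 against days 8 and 16 they sit in its middle (-0.51 to 0.82).

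The next question was whether the members moved further between day 8 and day 16. None of the 5 was called between these days, nor was any other mRNA (0% of 10962 by limma, with 537 at an unadjusted p under 0.05). The estimates for day 16 against day 8 were -0.42 for ERG4, -0.33 for EVM0004880, -0.29 for ERG3, -0.16 for ERG25 and 0.0069 for EVM0000659 on the log2 scale. Their 95% intervals ran from -1.41 to 0.57 for ERG4 and from -0.77 to 0.78 for EVM0000659, so a further change within these intervals was not detectable with 3 libraries a day. The fitted level of day 8 thus already held most of the difference from day 0 for each member.

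On day 24 only ERG25 moved back towards its fresh level by more than its spread, and it was not called. Against the mean of days 8 and 16 its log2 difference was 0.82 (95% interval 0.19 to 1.45; limma adjusted p = 0.0383), under the fold threshold of 1. Over the alternatives its adjusted p ranged from 0.000604 to 0.141. It was 0.120 after quantile normalization and missed 0.05 (0.0556 to 0.141) without any single library of days 8, 16 or 24 except day 8 replicate 3. The lowest values were 0.000967 in a fit of only groups B, C and D and 0.000604 without day 0 replicate 2. The other members had differences of 0.54 (ERG3), -0.19 (ERG4), -0.38 (EVM0000659) and -0.51 (EVM0004880), with limma adjusted p values of 0.255, 0.721, 0.339 and 0.340. Over the alternatives these ranged from 0.0866 to 0.690 for ERG3 and from 0.478 to 0.959 for ERG4. For EVM0000659 and EVM0004880 they ranged from 0.0456 to 0.605 and from 0.0388 to 0.531. Those of both fell under 0.05 in a fit of only groups B, C and D (0.0464 and 0.0388) and without day 0 replicate 2 (0.0456 and 0.0410), with differences that stayed below the fold threshold. None of the 5 was called, where 21.7% of all mRNAs were called in one direction or the other. All day 24 libraries were above all libraries of days 8 and 16 for ERG25 alone among the members, which was the case for 23.1% of the mRNAs tested. Against day 8 and day 16 taken singly no member was called either, beside 23.6% and 18.6% of all mRNAs. ERG25 came nearest, at 0.74 against day 8 and 0.90 against day 16 (limma adjusted p 0.0990 and 0.0574).

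The return was expressed as the part of the log2 distance from days 8 and 16 to day 0 that had been regained on day 24. ERG25 had regained 30.0%, with 21.0%, 29.9% and 39.1% in replicates 1, 2 and 3. ERG3 had regained 18.1%, but its replicates gave 12.6%, 2.59% and 39.0%. The value of ERG4 was -8.17%, with 0.608%, -20.5% and -4.63% in replicates 1, 2 and 3 and -15.5% to -1.92% when 1 library was left out, so no return was resolved for it. EVM0000659 and EVM0004880 were both at -28.7%, with all 3 replicates of each below 0. Over the 1570 mRNAs called lower on both day 8 and day 16 the median return was 56.9% (quartiles 26.5% and 88.2%). All 5 members lay below this median, and 26.7% of the 1570 mRNAs had a smaller return than ERG25 and 3.12% a smaller one than EVM0000659. The study named the members as down-regulated in these same samples, and all 5 were also called lower on day 24. Neither was required of the 1570 mRNAs, so a return below their median may in part follow from how the members were chosen.

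The members did not fall by the same amount, so their order changed. On day 0, ERG25 was first in each of the 3 libraries, and the other 4 had means of 131 to 172 FPKM with overlapping libraries. Within libraries, ERG4 was below EVM0000659 and EVM0004880 in all 3, whereas the place of ERG3 changed between libraries. On days 8 and 16, ERG25 (71.8 ± 3.06 and 63.2 ± 4.29 FPKM, SD, n = 3) and EVM0000659 (62.2 ± 12 and 60.7 ± 1.42) overlapped at the top. EVM0004880 (45.3 ± 5.22 and 35.9 ± 10.8) lay below them, without overlap with EVM0000659. ERG4 (26.7 ± 8.85 and 18.6 ± 1.31) and ERG3 (20.4 ± 3.34 and 16.3 ± 2.84) overlapped at the bottom and lay below EVM0004880. On day 24, ERG25 (121 ± 20.9) stood alone above EVM0000659 (47.0 ± 5.60). ERG3 (28.3 ± 11.9) and EVM0004880 (27.9 ± 2.93) overlapped below that, and ERG4 (19.3 ± 3.33) was below EVM0004880 in all 3 libraries.

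In relative terms, ERG25 made up 44.9% ± 3.54 of the summed FPKM of the 5 members on day 0, against 31.8% ± 2.92 and 32.5% ± 0.794 on days 8 and 16 and 49.6% ± 2.58 on day 24 (SD, n = 3 each). The share of EVM0000659 went the opposite way, with 15.3% ± 0.852, 27.3% ± 3.87, 31.3% ± 1.83 and 19.4% ± 3.07 on the 4 days. That of EVM0004880 was likewise higher on days 8 and 16 (13.7%, 20.1%, 18.3% and 11.5%). ERG3 was lower on these days (15.0%, 9.08%, 8.41% and 11.4%), and ERG4 had 11.1%, 11.7%, 9.60% and 8.03%. As parts of the same sum, the shares are not independent: a lower share of ERG25 raises the others together. The sum itself was 1134 ± 577 FPKM in fresh libraries, against 226 ± 13.0, 195 ± 16.2 and 244 ± 30.0 in groups B, C and D. On day 24 the share of ERG25 overlapped that of fresh fruiting bodies at a far lower total, while the share of EVM0000659 (16.1% to 22.2%) stayed above its fresh range (14.3% to 15.8%).

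**Figure D4:**
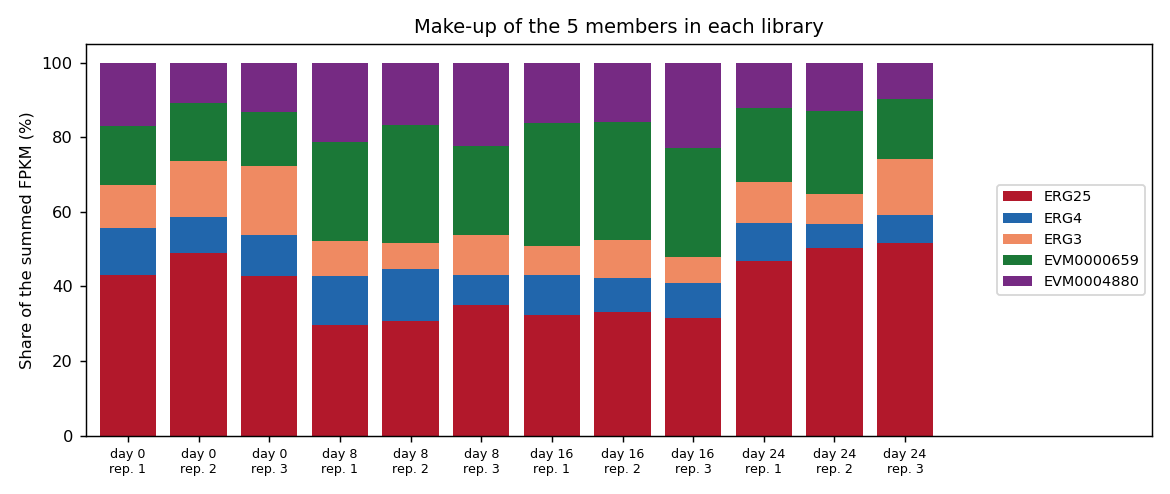
Share of each member in the summed FPKM of the 5 members (y, percent) for each of the 12 libraries (x). ERG25 takes 29.6% to 35.1% in the 6 libraries of days 8 and 16 and 42.8% to 51.7% in the 6 libraries of days 0 and 24.

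Ratios within a library, which do not depend on scaling between libraries, were compared for the 10 pairs of members. Between stored and fresh libraries the ratio differed for 2 pairs, both with EVM0000659. Relative to EVM0000659, ERG4 was lower in storage by 0.91 (log2 ratio -1.38 ± 0.330 in 9 stored and -0.47 ± 0.212 in 3 fresh libraries, SD; two-sided exact permutation test, adjusted p = 0.0455). For ERG3 against EVM0000659 the log2 ratio was -1.39 ± 0.645 stored and -0.05 ± 0.417 fresh (exact permutation test, adjusted p = 0.0455). The ratio of ERG25 to EVM0000659 was 0.54 ± 0.640 stored and 1.55 ± 0.0976 fresh, with an adjusted p of 0.106 in the same exact test, and those of the remaining pairs had adjusted p values of 0.136 to 0.800. With 1 library left out the differences stayed between -1.03 and -0.84 for ERG4 and between -1.55 and -1.13 for ERG3. No pair passed in 11 of 12 such tests, while 4 pairs passed without day 24 replicate 3. The smallest p of the test is then larger, and with a stored library left out 2 pairs could pass only if both were at it. With all libraries, only ERG4 against EVM0000659 was at the smallest p (0.00455, exact permutation test). ERG3 against EVM0000659 was at 0.00909 in the same test. Without any other single stored library both pairs had adjusted p values of 0.0606 to 0.0909 in the exact permutation test. The 2 calls were thus at the edge of what the test can pass. Their loss cannot be told apart from the smaller number of regroupings, so dependence on single libraries was not decided.

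Between day 24 and days 8 and 16, the ratio differed for the 3 pairs of ERG25 with ERG4, EVM0000659 and EVM0004880. ERG25 rose relative to ERG4 by 1.01 on the log2 scale (from 1.58 ± 0.390 in 6 libraries to 2.59 ± 0.394 in 3, SD), relative to EVM0000659 by 1.20 (from 0.14 ± 0.213 to 1.34 ± 0.275) and relative to EVM0004880 by 1.33 (from 0.75 ± 0.256 to 2.07 ± 0.269). In each of these pairs the libraries did not overlap (two-sided exact permutation test, p = 0.0119, the smallest that 84 regroupings allow; adjusted p = 0.0397 over 10 pairs). The ratio of ERG25 to ERG3 differed by 0.28 (exact permutation test, adjusted p = 0.255), with overlapping libraries. For ERG3 against EVM0004880 and EVM0000659 the differences were 1.04 and 0.92, and their adjusted p values of 0.0595 and 0.0714 in the exact permutation test missed the threshold. With 1 library left out, the differences of the 3 pairs stayed between 0.87 and 1.24, 1.05 and 1.29, and 1.17 and 1.41. With so few libraries 3 pairs at the smallest p cannot pass the adjustment, and no pair passed in 7 of these 9 tests. The 3 pairs were at an adjusted p of 0.0595 in the exact permutation test without day 8 replicate 1 or 2. Without day 16 replicate 1 or 3 they were at 0.0893, so not all of them were at the smallest p there. Without day 24 replicate 2 the ratio of ERG25 to ERG4 was at 0.143, against 0.0893 for those to EVM0000659 and EVM0004880. Since 3 pairs alone would have failed even at the smallest p, these tests cannot decide whether the calls depended on single libraries.

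Within days the members were compared after the mean of each day had been removed. In the fresh libraries they moved together: all 5 were above the day mean in replicates 1 and 3 and all 5 below it in replicate 2, with deviations of -1.41 to -0.97 on the log2 scale. No stored library had all 5 members on one side of the day mean, and stored deviations ran from -0.58 to 0.62. Pearson's r of the deviations over the 12 libraries was 0.61 to 0.92 for the 10 pairs, and Spearman's rho was 0.20 to 0.78. None passed the two-sided exact permutation test that reorders replicates within days (adjusted p 0.278 to 0.458 for r and 0.255 to 0.693 for rho). Without the 2 libraries farthest from the median, both of them fresh in each pair, r fell to between -0.13 and 0.77, and over the 9 stored libraries alone it was -0.60 to 0.58. The common movement within days therefore rested on the fresh libraries. ERG25 and ERG3 had the highest r after this removal (0.77). Day 0 replicate 3 was still included there, with deviations of 0.43 for ERG25 and 0.83 for ERG3. Over the stored libraries alone this pair had r = 0.58 (exact permutation test, adjusted p = 0.845).

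**Figure D5:**
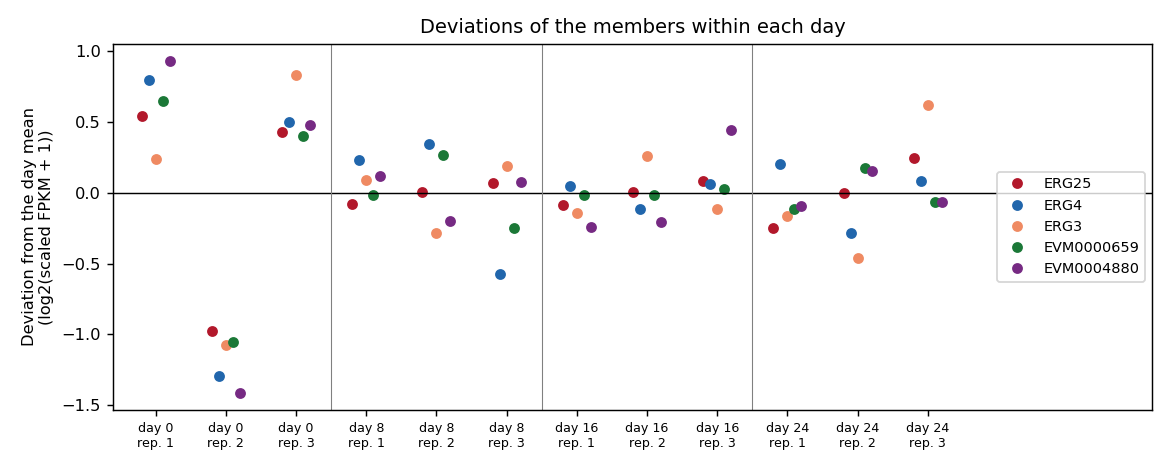
Deviation of each member from the mean of its day (y, log2(scaled FPKM + 1)) in the 12 libraries (x), with 1 coloured point per member. The points of day 0 replicate 2 lie together between -1.41 and -0.97, and those of the stored libraries scatter around 0 between -0.58 and 0.62.

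Over all 12 libraries the likeness of the profiles was described by Pearson's r of log2 values with no test, because the days form separate clusters. Among 10961 other mRNAs, ERG25 was the 4th most like ERG3 and ERG3 the 7th most like ERG25 (r = 0.97). EVM0000659 was the 4th most like EVM0004880 and EVM0004880 the 6th most like EVM0000659 (r = 0.96). ERG4 was nearly as close to EVM0000659 (r = 0.957, the 13th most like it) as EVM0004880 was (r = 0.962), and it ranked 317th in likeness to ERG25 (r = 0.90). Apart from the genes that the study names for the pathway, the mRNAs most like the mean profile of the 5 members were EVM0012985, EVM0004144 and EVM0002983 (r = 0.98, 0.97 and 0.97 over 12 libraries), whose products are not named in the sources used here. Of these, EVM0012985 had mean FPKM values of 204, 40.3, 29.7 and 42.7 on the 4 days.

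The other mRNA of the pathway that the study names is EVM0005394 (ERG13), the hydroxymethylglutaryl-CoA synthase of the early mevalonate part. It was called lower on each stored day, with log2 fold changes of -1.90, -2.30 and -2.19 (limma adjusted p 0.0141, 0.00503 and 0.0162), and on day 24 against days 8 and 16 its difference was -0.09 (adjusted p = 0.890). Other enzymes of the pathway could not be counted, since the files name no products.

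As a further readout, long non-coding RNAs (lncRNAs) were counted whose FPKM followed that of a member at a Pearson's r of at least 0.85 over the 12 libraries, as a description with no test. Of 1002 lncRNAs, 67 reached it with ERG3, 57 with ERG25, 46 with ERG4, 41 with EVM0004880 and 38 with EVM0000659, and 13 were shared by all 5 members. Without day 0 replicate 2 the counts were 94, 72, 64, 63 and 57 in the same order, so that all 5 were larger, and the medians given next became 71 and 13. The 1570 mRNAs called lower on days 8 and 16 had a median of 49 such lncRNAs, near the counts of the members, while the median over all mRNAs tested was 9. Over the 9 stored libraries alone the counts separated: 113 for ERG3, 59 for EVM0000659 and 55 for ERG25, but 5 for EVM0004880 and 3 for ERG4, where 3.96% of all mRNA and lncRNA pairs reached the threshold (an average of 39.6 lncRNAs per mRNA).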

How the data were processed

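RNA-seq of 12 libraries was analysed, 3 for each of 4 storage days. According to the labels and methods, reads were trimmed with cutadapt 2.7, checked with FastQC 0.11.8, aligned with HISAT2 2.1.0 and quantified with StringTie 1.3.3b. What the authors deposited is FPKM, normalized for transcript length and mapped reads. Counts and hence depth per gene are not known, and the DESeq2 test of the methods was replaced by limma. The libraries were directional, but no source used here states whether quantification used strand, so antisense reads may be included. All columns matched a title (0 unmatched).

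Libraries were scaled by median-of-ratios factors (0.983 to 1.02, from 10743 mRNAs above 0 in all libraries). An mRNA was tested if 3 or more libraries reached 1 FPKM, which held for 10962. The model was fitted to log2(scaled FPKM + 1) in limma 3.58.1 (R 4.3.3) with its trend option, and p values were adjusted by Benjamini-Hochberg over the tested mRNAs. Ratios and deviations were tested with exact permutation tests in Python 3.11.15, adjusted over 10 pairs. FPKM levels are unscaled. The limma step was checked on simulated data. The members, lists and comparisons were chosen with earlier results of these data known. Named genes are the 5 members, ERG13 and the 3 mRNAs (mean FPKM of at least 10) most like their mean profile. Alternatives were a pseudocount of 0.1, other filters and scalings, a fit without trend, fits restricted to the groups in question, the replicate block and each library left out. Of the mRNA identifiers, 0 matched the reference table, so no sequence is shown. Cis targets and enrichment were not analysed here.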

Additional observations from a re-analysis of the deposited data

How the results depend on the processing

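With 3 libraries a day and no read counts, small changes cannot be resolved, and the fresh level carries the largest error. All 5 members stayed called on days 16 and 24 against day 0 in each of the 21 alternatives. On day 8 the number was 3 in a fit of only the groups compared, which estimates the spread from fewer libraries. The main fit shares a single estimate of the spread over the 4 days, although the members spread more on day 0. For ERG25 the deviations from the day mean were 0.54, -0.97 and 0.43 on day 0, and -0.075, 0.0041 and 0.071 on day 8. Standard errors against day 0 may thus be too small, and those between stored days too large. Day 24 against day 16 gave 1 call with factors from the lncRNAs (ERG25, log2 fold change 1.06). The replicate numbers did not pair the libraries (correlations of deviations -0.37 to 0.35 over 18 pairs of libraries). With the number as a replicate block the calls were 5 on each stored day against day 0 and 0 in the other comparisons. Leaving out 1 library, the pairs whose ratio differed numbered 0 to 4 for stored against fresh libraries and 0 to 4 for day 24 against days 8 and 16, and the pairs that varied together within days 0 to 1. Restricting the latter to stored libraries was chosen after seeing the data. Signs turned only for values near 0. For EVM0000659 on day 16 against day 8 the difference was -0.017 without scaling, -0.012 with quantile normalization and -0.12 to 0.14 leaving out 1 library. For ERG4 on day 24 against day 16 it was -0.078 to 0.17, and for the ratio of ERG25 to ERG4, stored against fresh, -0.22 to 0.067. The ratio of EVM0000659 to EVM0004880 differed by -0.047 when day 24 was set against day 16 alone. Of 1050 values of single genes and pairs, 985 kept direction and call or, for measures without a call, stayed within the SD of the main result. The cause of these shifts was not tested.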
